A study of Mus musculus with 8 samples.

Results

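The genes described here encode the nuclear subunits of the mitochondrial respiratory chain and of ATP synthase, with the complex I assembly factors that share their names. They were chosen by symbol in the array's platform annotation: all symbols starting with Nduf, Sdha to Sdhd, Uqcr, Atp5 or Cox4 to Cox8 without Cox8b, together with Cycs and Cyc1. The rule gave 90 genes out of 19938 measured genes. There were 34 subunits of complex I, 4 of complex II, 9 of complex III with cytochrome c (Cycs) counted beside them, 18 of complex IV, 17 of complex V and 7 assembly factors of the Ndufaf family. Each gene was represented by the probe set of highest mean over the 8 arrays, among probe sets annotated to a single gene. Cox7c, Ndufb4, Ndufb4b and Ndufs5-ps were covered only by probe sets that name several genes, so no value is given for them. The subunits encoded by mitochondrial DNA were not analysed here.

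RNA came from thymus lobes of C57BL/6NTac mice, 8 weeks old. The spaceflight group was 4 mice flown on the space shuttle (STS-118) for 13 days. The ground-control group was 4 mice of matched age and sex, kept on the ground in animal enclosure modules like those of the flown mice. No mutant allele or drug is named for either group, each mouse gave 1 array, and values are log2 expression after RMA, so a difference of 1 is a doubling of signal. Spaceflight arrays 1 and 3 stood apart: the middle range of their values (interquartile range) was 2.43 on both, against 2.68 to 2.95 on the other 6, and their correlation with those 6 was 0.954 to 0.984 over all probe sets, where the 6 reached 0.986 to 0.994 with each other. Counts and medians of most gene groups are therefore given with and without them. Thymocyte markers, such as Cd4 and Cd8a, were bright on all arrays: the mean over 11 measured markers was 10.2 to 10.5 in spaceflight and 10.4 to 10.5 in ground control.

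The respiratory chain passes electrons from NADH (through complex I) and from succinate (through complex II) by way of ubiquinone to complex III, from there through cytochrome c to complex IV, and finally to oxygen. Complexes I, III and IV pump protons across the inner mitochondrial membrane, and complex V, the ATP synthase, uses their return flow to make ATP. Most subunits are encoded in the nucleus, and many of their genes share binding motifs for the transcription factors NRF1, GABP (an ETS factor) and YY1. Dividing thymocytes draw on this system for growth, and release of cytochrome c from mitochondria is a step in their death by apoptosis.

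Promoters of 4 genes are shown because these genes were among the lowest in spaceflight relative to ground control and hold the motifs searched. The sequences are from RefSeq, build GRCm38.p6, and run from 150 bases before to 30 bases after the gene's start, 5′ to 3′ on the gene's own strand. Capitals mark the GABP motif CCGGAAG or its reverse complement in Atp5md, the YY1 motif AAGATGGC and then the GABP motif in Atp5j, the YY1 motif in Ndufc1, and the palindromic core of the NRF1 motif in Ndufaf4. Atp5md lies at chr19:47090618-47090797 on the minus strand, Atp5j (the second of its 2 promoters) at chr16:84834947-84835126 on the minus strand, Ndufc1 at chr3:51408926-51409105 on the minus strand and Ndufaf4 at chr4:24897933-24898112 on the plus strand.
Atp5md: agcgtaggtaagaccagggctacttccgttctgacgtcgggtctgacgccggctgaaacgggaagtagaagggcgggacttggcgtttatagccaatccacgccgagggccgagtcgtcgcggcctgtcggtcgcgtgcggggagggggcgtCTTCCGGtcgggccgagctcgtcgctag
Atp5j: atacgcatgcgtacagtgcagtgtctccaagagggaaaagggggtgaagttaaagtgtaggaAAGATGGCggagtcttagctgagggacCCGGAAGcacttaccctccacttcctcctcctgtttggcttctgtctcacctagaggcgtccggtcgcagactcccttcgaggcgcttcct
Ndufc1: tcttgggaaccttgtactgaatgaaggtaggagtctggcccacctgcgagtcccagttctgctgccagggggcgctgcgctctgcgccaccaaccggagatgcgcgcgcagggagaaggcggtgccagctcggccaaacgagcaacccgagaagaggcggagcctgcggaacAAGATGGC
Ndufaf4: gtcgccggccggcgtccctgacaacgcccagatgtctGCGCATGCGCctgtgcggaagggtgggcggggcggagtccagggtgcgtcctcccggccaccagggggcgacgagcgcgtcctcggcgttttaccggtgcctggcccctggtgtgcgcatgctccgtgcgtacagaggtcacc

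Of the 90 genes, 73 had a promoter in the RefSeq table. Searching both strands from 250 bases before to 50 bases after the start, CCGGAAG was found in 18 of the 73 genes (24.7%), against 2683 of all 27025 genes with a promoter (9.93%). AAGATGGC was found in 10 genes (13.7%), against 862 of all genes (3.19%). The NRF1 palindrome was found in 7 genes (9.59%), against 290 of all genes (1.07%). The end of the GABP motif and the start of the YY1 motif share the letters AAG and can overlap. More than 1 of the motifs searched was held by 3 genes. Atp5j held the GABP and YY1 motifs, and Atp5k and Cox6a1 held the GABP and NRF1 motifs. The median difference between spaceflight and ground control was -0.22 for genes with the GABP motif, -0.26 with the YY1 motif, -0.14 with the NRF1 motif and -0.13 for the 41 matched genes with none. A match to these letters is a description of the window and was not tested as a binding site.

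None of the 90 genes differed between spaceflight and ground control at a limma adjusted p under 0.05, and the smallest adjusted p was 0.383, for Atp5md. Over all genes 0.0802% passed that threshold. At an unadjusted limma p under 0.05 there were 13 lower and 0 higher genes among the 90, where the background over all genes was 7.38% lower and 3.43% higher. The 2 groups of mice did not overlap for 7 genes, all lower in spaceflight (Atp5md, Ndufaf2, Cyc1, Atp5j, Cox7a2, Cox6b1 and Atp5c1), against a background of 4.28% lower and 1.73% higher. These backgrounds include dim genes. In direction alone, 79 of the 90 were lower in spaceflight than in ground control, where 53.5% of all genes were. The differences ran from -0.47 (Atp5md) to 0.30 (Atp5l) with a median of -0.17, and the median over all genes was -0.02.

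Bright genes as a whole were lower on the spaceflight arrays, and most respiratory chain genes are bright. Among the 20% of genes with the highest mean level, the 61 members had a median difference of -0.19 and the other 3927 genes one of -0.13. Of the 61 members 57 were lower in spaceflight, and of the other 3927 bright genes 3042 were. The groups did not overlap, with spaceflight lower, for 6 of the 61 members and 308 of the 3927 others, and an unadjusted limma p under 0.05 with spaceflight lower was reached by 10 members and 496 others. Leaving out spaceflight mouse 1 turned the order of the medians: it was -0.08 in the bright members (46 of 61 lower) and -0.09 in the other bright genes (2883 lower). Without spaceflight arrays 1 and 3 it was -0.06 in the bright members (41 lower) and 0.00 in the others (1938 lower).

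By complex, the median difference was -0.18 in complex I (32 of 34 lower in spaceflight), -0.24 in complex II (4 of 4), -0.22 in complex III with cytochrome c (9 of 10), -0.13 in complex IV (12 of 18), -0.10 in complex V (15 of 17) and -0.17 in the assembly factors (7 of 7). Without spaceflight mouse 4 these medians were larger in size. They were then -0.27 in complex I, -0.29 in II, -0.31 in III, -0.18 in IV, -0.16 in V and -0.27 in the assembly factors. The medians were smaller in size without spaceflight mouse 1 and without spaceflight arrays 1 and 3. Without spaceflight mouse 1 they were -0.08 in complex I (22 lower), -0.13 in II (3), -0.09 in III (8), -0.03 in IV (13), -0.06 in V (13) and -0.11 in the assembly factors (6). Without spaceflight arrays 1 and 3 they were -0.01 in complex I (19 lower), -0.07 in II (2), -0.09 in III (7), -0.05 in IV (12), -0.07 in V (12) and -0.06 in the assembly factors (5). No complex had a member past the adjusted threshold. In these whole thymus lobes, fewer cells of a type and less RNA per cell cannot be told apart.

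The 4 spaceflight mice were not alike. The median deviation of the 90 genes from their 8-array mean was -0.37, -0.06, -0.04 and 0.14 in spaceflight mice 1 to 4, and 0.04, 0.07, 0.07 and 0.14 in ground-control mice 1 to 4. Spaceflight mouse 1 thus lay below all others, and spaceflight mouse 4 was level with the highest ground control. Other bright genes had medians of -0.16, 0.09, -0.21 and 0.04 in spaceflight mice 1 to 4, and 0.06, 0.03, 0.09 and 0.05 in the ground controls. Spaceflight mouse 3, which was the lowest array for bright genes in general, was therefore near its 8-array mean for the respiratory chain.

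**Figure D1:**
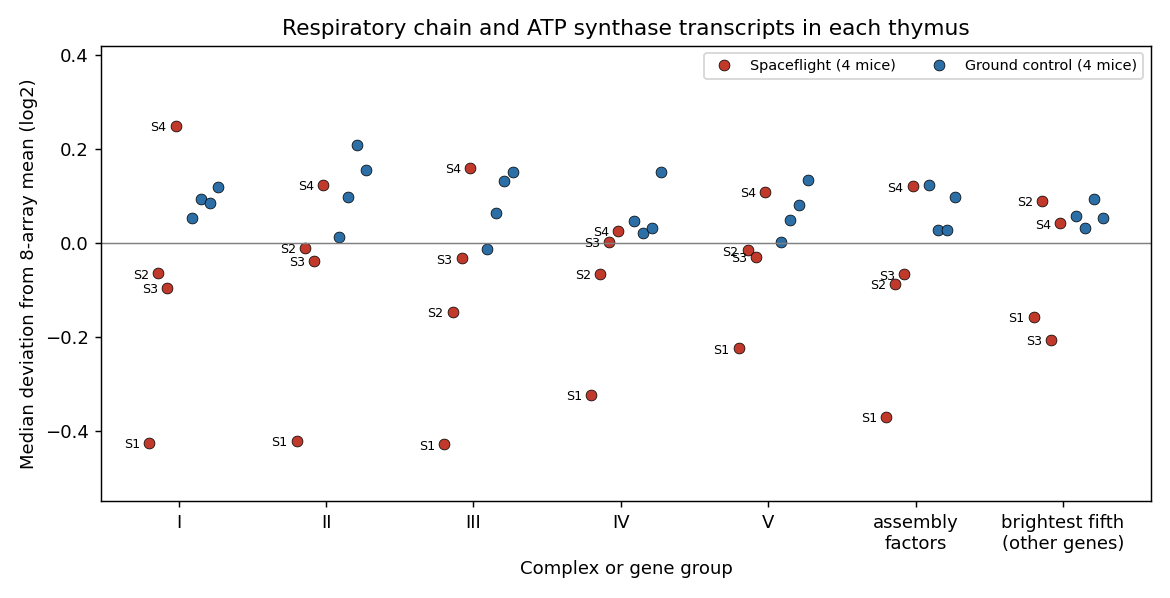
Median deviation from the 8-array mean (log2) of the genes of each complex in each mouse; red points are the 4 spaceflight mice (S1 to S4), blue points the 4 ground controls, and the last column shows the other genes of the brightest 20%. S1 lies lowest in every complex, between -0.43 and -0.22, and S4 is at 0.25 in complex I.

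Counted gene by gene, spaceflight mouse 1 was the lowest of the 8 arrays for 74 of the 90 genes (82.2%), against 35.2% of the other bright genes and 22.9% of all genes. The count was 31 of 34 in complex I, 4 of 4 in complex II, 9 of 10 in complex III with cytochrome c, 10 of 18 in complex IV, 14 of 17 in complex V and 6 of 7 assembly factors. Spaceflight mouse 3 was the lowest for 5 of the 90 genes (5.56%), against 42.3% of the other bright genes. Spaceflight mouse 4 was the highest array for 33 genes (36.7%), 18 of them in complex I, against 19.7% of the other bright genes. Among the 61 bright members alone, spaceflight mouse 1 was lowest for 56 (91.8%) and spaceflight mouse 3 for 2 (3.28%). Spaceflight mouse 4 was highest for 20 of these 61 (32.8%).

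**Figure D2:**
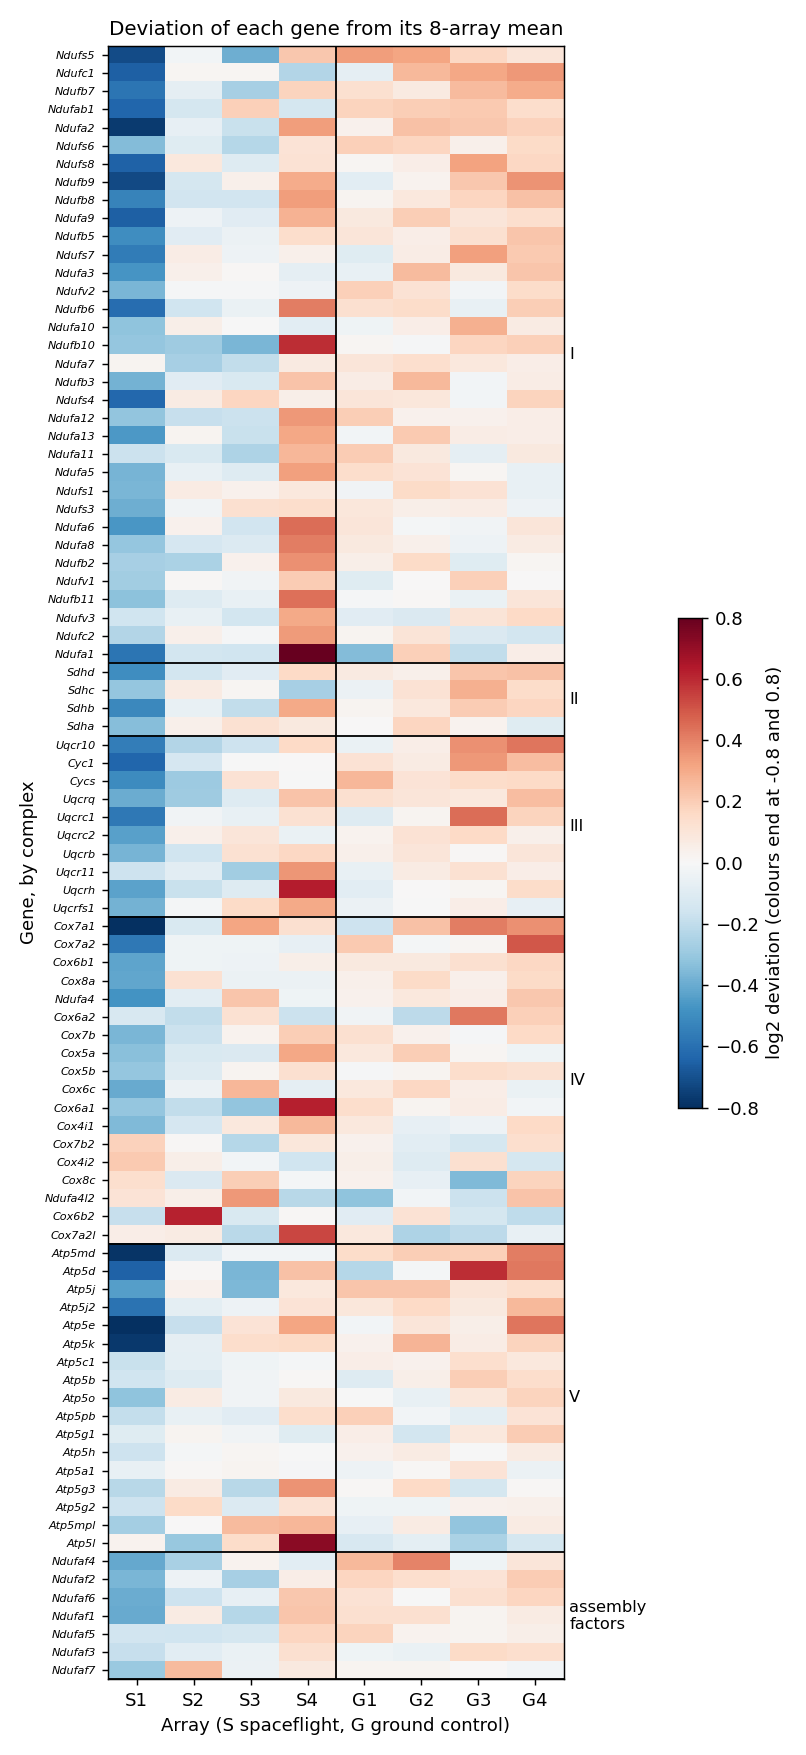
Deviation of each of the 90 genes (one line per gene, grouped by complex) from its own 8-array mean, in log2 units, with spaceflight mice (S1 to S4) left of ground controls (G1 to G4). Blue marks values below the gene's mean. S1 is the lowest of the 8 arrays for 74 genes, and S4 is the highest for 33.

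With spaceflight mouse 1 left out, the median difference of the 90 genes was -0.06, 65 genes were lower (background 54.3%) and 1 gene, Atp5md, was lower at an unadjusted limma p under 0.05 (background 4.94%). The backgrounds in this paragraph include dim genes. Among the brightest 20%, 46 of 61 members and 2883 of 3927 other genes were lower without spaceflight mouse 1. With spaceflight mouse 4 left out, the median was -0.23 and 30 genes were lower at that level (background 11.1%). With spaceflight arrays 1 and 3 both left out, the median was -0.04, 57 genes were lower (background 53.4%), Atp5md, Ndufaf4, Cycs and Ndufab1 were lower at an unadjusted p under 0.05 (background 3.97%), and Cox7a2l and Cox6b2 were higher (background 3.49%). Cyclic loess, a normalization that removes trends with brightness between arrays, left a median of -0.07 and 58 genes lower (background 50.4%). No gene of the 90 passed the adjusted threshold in any of these fits.

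Complex I takes electrons from NADH in a matrix arm and pumps protons in a membrane arm. Its matrix arm was lower in spaceflight for 15 of 15 genes (median -0.17), the distal membrane arm for 9 of 9 (-0.21) and the proximal membrane arm for 7 of 9 (-0.15). Without spaceflight mouse 1 these medians were -0.08, -0.08 and -0.10, and without spaceflight arrays 1 and 3 they were -0.01 in the matrix arm (9 lower), -0.02 in the distal arm (5 lower) and 0.00 in the proximal arm (4 lower).

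Ndufv1, the subunit that binds NADH and the flavin, had 8.65, 8.94, 8.90 and 9.13 in spaceflight mice, against 8.83, 8.93, 9.12 and 8.93 in ground controls. Ndufs1, the largest iron-sulphur subunit, had 8.95, 9.38, 9.35 and 9.40 in spaceflight mice, against 9.29, 9.47, 9.43 and 9.26 in ground controls. These catalytic genes overlapped between the groups, with differences of -0.05 ± 0.12 and -0.09 ± 0.13 (SE). Ndufs7, which carries an iron-sulphur cluster near the ubiquinone site, had 8.12, 8.74, 8.64 and 8.72 in spaceflight mice, against 8.58, 8.74, 9.01 and 8.89 in ground controls. Ndufs8, its neighbour with further clusters, had 7.69, 8.42, 8.23 and 8.45 in spaceflight mice, against 8.35, 8.39, 8.66 and 8.50 in ground controls. Ndufv2, which also carries a cluster, had 9.12, 9.47, 9.47 and 9.44 in spaceflight mice, against 9.67, 9.60, 9.46 and 9.63 in ground controls. In all of these, spaceflight mouse 1 was the lowest array, and the groups overlapped.

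Ndufs5, a small accessory subunit on the intermembrane face, had 7.37, 8.06, 7.69 and 8.30 in spaceflight mice, against 8.42, 8.40, 8.25 and 8.18 in ground controls, a difference of -0.46 ± 0.18 (limma adjusted p = 0.409). Ndufc1, a small subunit of the proximal arm, had 8.34, 9.01, 9.01 and 8.76 in spaceflight mice, against 8.92, 9.25, 9.30 and 9.34 in ground controls, a difference of -0.42 ± 0.16 (adjusted p = 0.402). Its 2 probe sets gave -0.47 and -0.42. Ndufb7, on the distal arm, had 7.79, 8.30, 8.11 and 8.55 in spaceflight mice, against 8.50, 8.45, 8.63 and 8.67 in ground controls. For these small subunits spaceflight mouse 1 was the lowest array, and at least 1 spaceflight mouse reached the ground-control range. Without spaceflight arrays 1 and 3 Ndufs5 differed by -0.13, Ndufc1 by -0.32 and Ndufb7 by -0.13.

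Ndufab1, the mitochondrial acyl carrier protein that sits in both arms, had 7.96, 8.45, 8.78 and 8.45 in spaceflight mice, against 8.77, 8.79, 8.80 and 8.73 in ground controls. Ground controls were close together (8.77 ± 0.03, SD, n = 4), and 3 of 4 spaceflight mice lay below all of them, and mouse 3 lay within their range. The difference was -0.36 ± 0.15 with all arrays, -0.21 without spaceflight mouse 1 and -0.32 without spaceflight arrays 1 and 3. Ndufs6, a zinc-binding accessory subunit of the matrix arm, had 7.83, 8.08, 7.95 and 8.29 in spaceflight mice, against 8.37, 8.35, 8.22 and 8.33 in ground controls, with spaceflight mouse 4 alone inside the ground-control range. Ndufa1, a small membrane-arm subunit encoded on the X chromosome, had 6.71, 7.15, 7.14 and 8.48 in spaceflight mice, against 6.95, 7.49, 7.10 and 7.35 in ground controls. Spaceflight mouse 4 was far above all others for Ndufa1, and the difference of 0.15 ± 0.30 became -0.22 without that mouse. The remaining complex I genes differed by -0.33 (Ndufa2) to 0.07 (Ndufc2).

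The assembly factors build complex I without remaining in it. Ndufaf4, which acts in an early step, had 6.43, 6.58, 6.87 and 6.76 in spaceflight mice, against 7.10, 7.24, 6.81 and 6.94 in ground controls, a difference of -0.36 ± 0.13 (limma adjusted p = 0.393), with spaceflight mouse 3 alone inside the ground-control range. Ndufaf2, a chaperone of a late step and a paralog of the subunit Ndufa12, had 6.19, 6.52, 6.29 and 6.61 in spaceflight mice, against 6.73, 6.69, 6.67 and 6.76 in ground controls. For Ndufaf2 every spaceflight mouse was below every ground control, and the difference was -0.31 ± 0.12, or -0.15 without spaceflight arrays 1 and 3. Ndufaf6, another early factor, had 4.76, 4.99, 5.09 and 5.37 in spaceflight mice, against 5.27, 5.15, 5.28 and 5.33 in ground controls. Ndufaf5, which in human cells hydroxylates the subunit NDUFS7, had 5.08, 5.07, 5.09 and 5.40 in spaceflight mice, against 5.41, 5.26, 5.25 and 5.28 in ground controls. For Ndufaf5, 3 spaceflight mice lay below all ground controls, and spaceflight mouse 4 lay among them. Ndufaf1, Ndufaf3 and Ndufaf7 differed by -0.17, -0.10 and -0.01.

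Complex II, succinate dehydrogenase, belongs to both the citric acid cycle and the respiratory chain. Its catalytic flavoprotein Sdha had 10.10, 10.48, 10.56 and 10.52 in spaceflight mice, against 10.44, 10.61, 10.47 and 10.34 in ground controls, a difference of -0.05 ± 0.13. The iron-sulphur subunit Sdhb had 7.64, 8.10, 7.96 and 8.46 in spaceflight mice, against 8.18, 8.24, 8.36 and 8.33 in ground controls. Both overlapped between the groups. The membrane anchor Sdhc had 8.54, 8.91, 8.86 and 8.58 in spaceflight mice, against 8.80, 8.96, 9.13 and 8.99 in ground controls, and the anchor Sdhd had 8.29, 8.64, 8.70 and 8.95 in spaceflight mice, against 8.86, 8.83, 9.01 and 9.02 in ground controls. The anchors differed by -0.25 ± 0.12 and -0.28 ± 0.14, with at least 1 spaceflight mouse inside the ground-control range for each (limma adjusted p = 0.478 and 0.471).

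Complex III passes electrons from ubiquinol to cytochrome c. Its haem subunit Cyc1 had 8.89, 9.39, 9.52 and 9.53 in spaceflight mice, against 9.64, 9.59, 9.87 and 9.77 in ground controls. All spaceflight mice were below all ground controls, and the difference was -0.38 ± 0.15 (limma adjusted p = 0.412), or -0.23 without spaceflight mouse 1. The Rieske iron-sulphur subunit Uqcrfs1 had 7.34, 7.70, 7.87 and 8.02 in spaceflight mice, against 7.67, 7.71, 7.77 and 7.65 in ground controls, so 2 spaceflight mice lay above and 1 below the ground-control range. Uqcr10, a small subunit, had 7.03, 7.35, 7.42 and 7.74 in spaceflight mice, against 7.53, 7.64, 7.95 and 8.01 in ground controls, a difference of -0.40 ± 0.16. Uqcrq, which binds ubiquinone, had 7.52, 7.63, 7.81 and 8.14 in spaceflight mice, against 8.04, 8.01, 8.00 and 8.16 in ground controls. For both small subunits 3 of 4 spaceflight mice, or all but spaceflight mouse 4, were below the ground-control range. The core proteins Uqcrc1 and Uqcrc2 differed by -0.27 ± 0.16 and -0.17 ± 0.13, and the other 3 genes by -0.12 to -0.04.

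Cytochrome c itself (Cycs) had 9.38, 9.59, 10.00 and 9.88 in spaceflight mice, against 10.15, 9.99, 10.03 and 10.04 in ground controls. Spaceflight mice 1, 2 and 4 were below every ground control and mouse 3 lay just inside their range. The difference was -0.34 ± 0.14 (limma adjusted p = 0.425), its 3 probe sets gave -0.34 to -0.22, and it was -0.23 without spaceflight mouse 1 and -0.32 without spaceflight arrays 1 and 3. RefSeq lists 3 pseudogene copies named after Cycs, and which copies its probe sets can also capture was not tested.

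**Figure D3:**
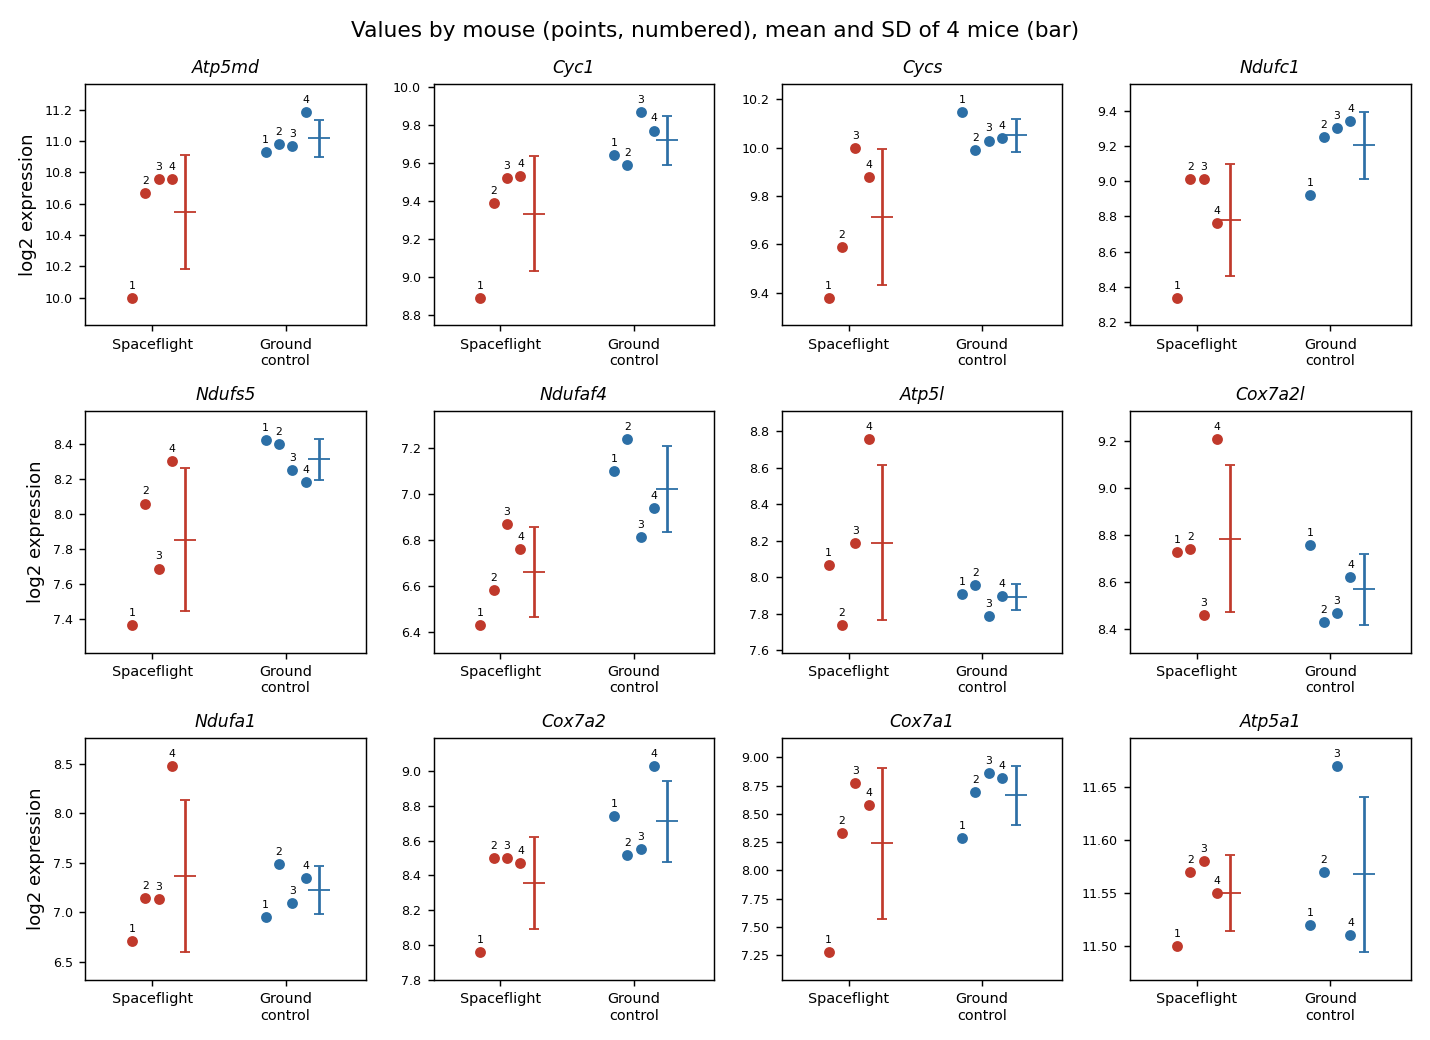
Log2 expression of 12 genes by mouse, spaceflight (red, numbered 1 to 4) left of ground control (blue), each with the mean and SD of 4 mice. Atp5md and Cyc1 show all spaceflight mice below all ground controls, and Atp5l and Ndufa1 show spaceflight mouse 4 far above the rest (8.76 and 8.48).

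Complex IV, cytochrome c oxidase, reduces oxygen and has several subunits with alternative forms made in particular tissues. The 10 genes of the generally expressed forms were all lower in spaceflight (median -0.14), while of the 7 tissue forms 2 were lower and 5 higher (median 0.04). None of the 5 higher forms was among the brightest 20% of genes. Cox7b2 was in the dimmest 20%, where 3050 of the 3988 genes were higher in spaceflight. Ndufa4l2 was in the next 20%, where 2804 of 3987 were higher. Cox4i2, Cox6b2 and Cox8c were in the middle 20%, where 1649 of 3988 were higher. Without spaceflight mouse 1, 9 of 10 general forms (median -0.05) and 4 of 7 tissue forms (-0.02) were lower, and without spaceflight arrays 1 and 3 it was 7 of 10 (-0.06) and 5 of 7 (-0.02). No gene of either kind passed the adjusted threshold.

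Cox7a2, the general form of subunit 7a, had 7.96, 8.50, 8.50 and 8.47 in spaceflight mice, against 8.74, 8.52, 8.55 and 9.03 in ground controls, a difference of -0.35 ± 0.16 (limma adjusted p = 0.454). The groups did not overlap, although the gap between 8.50 and 8.52 was small, and without spaceflight mouse 1 the difference was -0.22. Cox6b1, which faces cytochrome c, had 9.56, 9.95, 9.94 and 10.03 in spaceflight mice, against 10.06, 10.06, 10.11 and 10.15 in ground controls, again with no overlap and a difference of -0.23 ± 0.12, or -0.12 without spaceflight mouse 1. Cox8a had 8.14, 8.68, 8.51 and 8.51 in spaceflight mice, against 8.60, 8.71, 8.60 and 8.71 in ground controls. Cox4i1, the general form of the regulatory subunit 4, had 9.08, 9.30, 9.52 and 9.69 in spaceflight mice, against 9.52, 9.37, 9.39 and 9.59 in ground controls. It overlapped between the groups and differed by -0.07 ± 0.14. Cox6a1 had 8.50, 8.61, 8.49 and 9.43 in spaceflight mice, against 8.95, 8.83, 8.87 and 8.79 in ground controls. Here 3 spaceflight mice were below all ground controls and spaceflight mouse 4 was above them all, so the difference of -0.10 ± 0.19 became -0.33 without mouse 4. Ndufa4, first assigned to complex I and now to complex IV, differed by -0.19 ± 0.14, and the remaining 4 general genes by -0.15 to -0.13.

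Among the tissue forms, Cox7a1, made in muscle, heart and brown fat, had 7.28, 8.33, 8.77 and 8.58 in spaceflight mice, against 8.29, 8.69, 8.86 and 8.82 in ground controls. Its difference of -0.43 ± 0.27 (limma adjusted p = 0.539) became -0.11 without spaceflight mouse 1, which lay about 1 unit below all others. Cox6a2, the muscle and heart form of subunit 6a, had 6.86, 6.79, 7.11 and 6.82 in spaceflight mice, against 6.96, 6.78, 7.41 and 7.18 in ground controls, and overlapped between the groups. Cox4i2, known from lung, had 5.94, 5.78, 5.71 and 5.57 in spaceflight mice, against 5.78, 5.63, 5.86 and 5.59 in ground controls, and did not separate the groups. Cox6b2, a testis form, had 5.64, 6.44, 5.70 and 5.83 in spaceflight mice, against 5.73, 5.94, 5.68 and 5.62 in ground controls, with spaceflight mouse 2 above the rest. Ndufa4l2, a paralog of Ndufa4 known from hypoxic cells, differed by 0.14 ± 0.15, and the testis forms Cox7b2 and Cox8c by 0.03 and 0.10.

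Markers of other tissues were also lowest in spaceflight mouse 1. Neither the muscle nor the fat cell markers followed the 90 genes in all mice. In spaceflight mice 3 and 4 the fat cell markers lay near the 90 genes and the muscle markers did not. In ground-control mouse 3 the median deviation was 0.68 for muscle and 0.47 for fat cell markers, against 0.07 for the 90 genes. The 14 muscle markers were all lower in spaceflight (median -0.40, none past the adjusted threshold), with median deviations of -1.04, 0.18, 0.56 and -0.28 in spaceflight mice 1 to 4, and 0.10, -0.13, 0.68 and 0.26 in ground controls. Their median difference was -0.03 without spaceflight mouse 1 (7 of 14 lower), -0.33 without spaceflight arrays 1 and 3 (13 lower) and -0.33 after cyclic loess (14 lower). Mb (myoglobin), Myl1 and Ckm differed by -0.59 ± 0.26, -0.51 ± 0.24 and -0.68 ± 0.41. The list's mean level ran from 5.90 to 7.75 in spaceflight and from 7.06 to 7.85 in ground control. Of 13 measured fat cell markers 11 were lower (median -0.33), with deviations of -0.90, -0.00, 0.02 and 0.15 in spaceflight mice, and -0.01, 0.19, 0.47 and 0.02 in ground controls, and list means of 7.37 to 8.34 in spaceflight and 8.23 to 8.68 in ground control. The fat list's median was -0.08 without spaceflight mouse 1 (8 of 13 lower), 0.01 without spaceflight arrays 1 and 3 (6 lower) and -0.26 after cyclic loess (11 lower). Retn, Lep and Pparg, the 3 fat markers of smallest limma p, differed by -0.83 ± 0.22, -0.75 ± 0.21 and -0.60 ± 0.17 with all arrays. The 2 higher fat markers, Lpl and Dio2, differed by 0.41 ± 0.23 and 0.02 ± 0.16. RMA log2 values have no zero, so no marker is at 0. Muscle and brown fat are rich in mitochondria. Spaceflight mouse 1 was the lowest array for 11 of 14 muscle and 11 of 13 fat markers. The part of muscle and fat in the respiratory chain values was not tested. The 11 thymocyte markers were lower for 11 of 11 genes (median -0.15, and -0.04 without spaceflight arrays 1 and 3), with Rag2, Cd8a and Cd4 at -0.25 ± 0.11, -0.22 ± 0.10 and -0.15 ± 0.11.

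**Figure D4:**
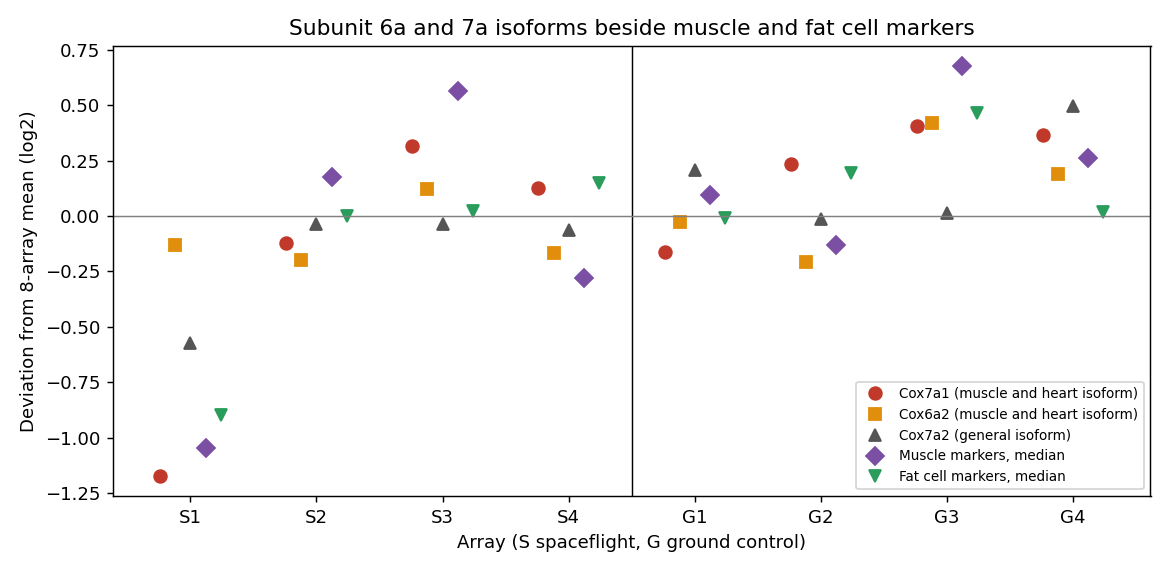
Deviation from the 8-array mean (log2) of the subunit 7a and 6a forms beside the median of 14 muscle and 13 fat cell markers, for spaceflight mice (S1 to S4) left of ground controls (G1 to G4). S1 is lowest for Cox7a1, Cox7a2 and both marker lists (-1.04 for muscle and -0.90 for fat), but not for Cox6a2.

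Cox7a2l has been described as a factor that links complexes III and IV in supercomplexes, a role that was not tested in these mice. Cox7a2l had 8.73, 8.74, 8.46 and 9.21 in spaceflight mice, against 8.76, 8.43, 8.47 and 8.62 in ground controls. It differed by 0.21 ± 0.15 (limma adjusted p = 0.58), by 0.34 after cyclic loess and by 0.40 without spaceflight arrays 1 and 3, and its 2 probe sets gave 0.12 and 0.21. Spaceflight mouse 4 was the highest array, and without it the difference was 0.07.

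ATP synthase has a catalytic F1 head, a ring of c subunits in the membrane, a peripheral stalk and small membrane subunits that help it form dimers. The F1 genes were lower in spaceflight for 5 of 5 (median -0.15), the c ring genes for 3 of 3 (-0.01), the stalk genes for 4 of 4 (-0.10) and the other membrane subunits for 3 of 5 (-0.27). Without spaceflight arrays 1 and 3 the medians were -0.07, 0.13, -0.03 and -0.10, with 5, 1, 3 and 3 genes lower in the same order of parts.

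Among the F1 genes, Atp5a1, Atp5b and Atp5c1 varied little between mice and Atp5d varied more. Atp5a1, the alpha subunit, had 11.50, 11.57, 11.58 and 11.55 in spaceflight mice, against 11.52, 11.57, 11.67 and 11.51 in ground controls. Atp5b, the catalytic beta subunit, had 11.80, 11.86, 11.93 and 11.97 in spaceflight mice, against 11.86, 12.01, 12.16 and 12.10 in ground controls. These genes differed by -0.02 ± 0.10 and -0.14 ± 0.11, and the groups overlapped. Atp5c1, the gamma subunit of the rotor, had 11.18, 11.28, 11.32 and 11.34 in spaceflight mice, against 11.41, 11.39, 11.49 and 11.44 in ground controls. Its groups did not overlap, and the difference was -0.15 ± 0.10 (limma adjusted p = 0.546). Atp5d, the delta subunit, had 9.35, 10.01, 9.63 and 10.23 in spaceflight mice, against 9.77, 9.98, 10.59 and 10.42 in ground controls, with overlap and a difference of -0.39 ± 0.21, or -0.07 without spaceflight arrays 1 and 3, and Atp5e, the epsilon subunit, differed by -0.28. The 3 genes of the c ring, Atp5g1, Atp5g2 and Atp5g3, encode the same mature protein. They differed by -0.10, -0.0048 and -0.01, and the 3 probe sets of Atp5g2 lay on both sides of 0 (-0.0048 to 0.0172).

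In the stalk, Atp5j (coupling factor 6) had 9.94, 10.41, 10.02 and 10.46 in spaceflight mice, against 10.60, 10.60, 10.48 and 10.52 in ground controls, with no overlap and a difference of -0.34 ± 0.13 (limma adjusted p = 0.412), or -0.12 without spaceflight arrays 1 and 3. The other 3 stalk genes differed by -0.10 to -0.08. Atp5j2, membrane subunit f, had 9.26, 9.77, 9.81 and 9.96 in spaceflight mice, against 9.94, 10.01, 9.93 and 10.11 in ground controls, with only spaceflight mouse 4 inside the ground-control range. Atp5k, membrane subunit e, differed by -0.27, and the small proteolipid Atp5mpl by 0.13. Atp5md, a small membrane subunit linked to dimers of the synthase, had 10.00, 10.67, 10.76 and 10.76 in spaceflight mice, against 10.93, 10.98, 10.97 and 11.19 in ground controls. All spaceflight mice were below all ground controls for Atp5md. It averaged 10.55 ± 0.37 in spaceflight and 11.01 ± 0.12 in ground control (SD, n = 4 each), a difference of -0.47 ± 0.17 or 1.38-fold lower, with 3 probe sets at -0.47 to -0.37. Without spaceflight mouse 1 the difference was -0.28, and without arrays 1 and 3 it was -0.30.

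Atp5l, membrane subunit g, ran opposite to Atp5md. It had 8.07, 7.74, 8.19 and 8.76 in spaceflight mice, against 7.91, 7.96, 7.79 and 7.90 in ground controls, so 3 spaceflight mice were above the ground-control range and mouse 2 below it. The difference was 0.30 ± 0.18 (limma adjusted p = 0.525), 0.43 after cyclic loess and 0.11 without spaceflight mouse 4, and all 6 probe sets gave 0.21 to 0.32. RefSeq lists 2 pseudogene copies named after Atp5l, and the 6 probe sets need not be independent of each other. In all, 10 of the 90 genes have such copies in RefSeq (1 to 4 each), among them Ndufab1, Ndufs5 and Atp5c1 named above, and their values are uncertain to that extent.

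**Figure D5:**
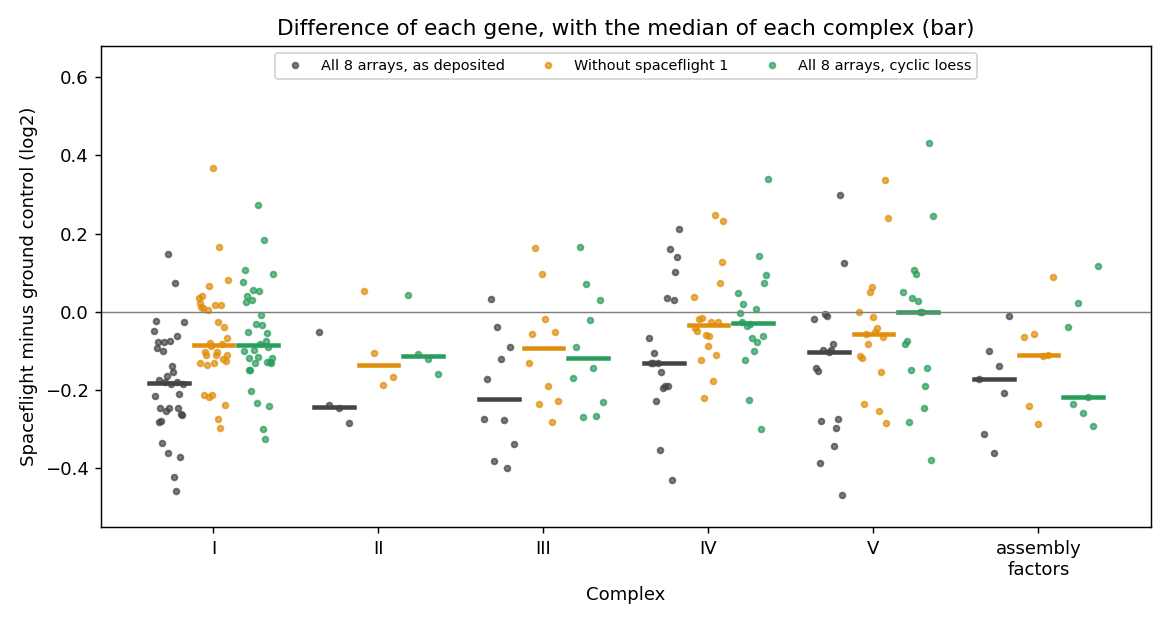
Spaceflight minus ground control (log2) for each of the 90 genes by complex, as points with the median as a bar, from all 8 arrays as deposited, without spaceflight mouse 1, and after cyclic loess. The medians over the 90 genes were -0.17, -0.06 and -0.07.

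Other genes of mitochondrial energy metabolism, from lists drawn up with earlier results of these data known, were mostly lower in spaceflight too, with 0 genes past the adjusted threshold in each list (smallest limma adjusted p 0.123, for Pprc1). Of 35 other assembly factors 31 were lower in spaceflight (median -0.20), of 12 citric acid cycle genes 11 (-0.23), of 12 pyruvate entry genes 10 (-0.20), of 20 import genes 19 (-0.17), of 20 regulators of mitochondrial biogenesis 17 (-0.09) and of 10 carriers and uncoupling proteins 6 (-0.04). By comparison, 53.5% of all genes were lower, as were 77.7% of the brightest 20% and 78.2% of the next 20%. Without spaceflight arrays 1 and 3 the medians of these lists were -0.07, -0.10, -0.06, -0.06, -0.02 and 0.10. The lower genes then numbered 26, 10, 8, 15, 10 and 3 in the same order of lists, with 53.4% of all genes lower. The complex assembly genes Uqcc1 and Timmdc1, for complexes III and I, differed by -0.45 ± 0.11 and -0.48 ± 0.12, and Cox20, for complex IV, by -0.43 ± 0.13. Of the 4 higher genes in the list of other assembly factors, Nubpl differed by 0.40 ± 0.14 (limma adjusted p = 0.384). Every spaceflight mouse was above every ground control for Nubpl, with 5.29, 5.31, 5.83 and 5.28 against 4.99, 5.20, 4.84 and 5.07. Spaceflight array 3 was the highest of these. Without spaceflight arrays 1 and 3, 0 genes of this list were higher at an unadjusted limma p under 0.05. In the citric acid cycle, malate dehydrogenase Mdh2 differed by -0.37 ± 0.15, citrate synthase Cs by -0.29 ± 0.14 and fumarase Fh1 by -0.26 ± 0.15.

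Pyruvate carboxylase (Pcx), which makes oxaloacetate and is strong in fat cells, had 7.90, 8.83, 8.70 and 8.61 in spaceflight mice, against 8.94, 9.24, 9.81 and 9.39 in ground controls. All spaceflight mice were below all ground controls, and the difference was -0.84 ± 0.22 (limma adjusted p = 0.246). The pyruvate carrier Mpc1 differed by -0.50 ± 0.18, and Pdk1, the kinase that switches off pyruvate dehydrogenase, by 0.20 ± 0.10. Pprc1, a coactivator of the PGC-1 family that works with NRF1, had 6.05, 6.41, 5.94 and 6.18 in spaceflight mice, against 6.68, 6.60, 6.87 and 6.86 in ground controls, also with no overlap. Its difference was -0.61 ± 0.13 (adjusted p = 0.123), and -0.46 without spaceflight arrays 1 and 3. Tfb1m, which modifies mitochondrial ribosomal RNA, differed by -0.49 ± 0.13, and Gabpb1, a subunit of GABP, by -0.35 ± 0.13. In mitochondrial import, Tomm5, Tomm40 and Timm23 differed by -0.40 ± 0.13, -0.32 ± 0.12 and -0.32 ± 0.13. The outer membrane channels Vdac2 and Vdac1 differed by -0.18 ± 0.11 and -0.07 ± 0.12. Ucp1, the uncoupling protein of brown fat, had 10.01, 10.84, 11.29 and 11.06 in spaceflight mice, against 10.97, 11.07, 11.44 and 11.11 in ground controls, with spaceflight mouse 1 lowest again.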

How the data were processed

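Thymus RNA of 8 mice was measured on Affymetrix arrays. The deposited values are log2 expression, made by the authors with RMA, and the submitters' processing notes also name limma. Their versions, the genome build and any filters are not given in the sources used here. Of 35557 probe sets, 6614 with the lowest identifiers and no annotated gene were taken to be controls and left out. Of the 28943 kept, 21789 named 1 gene, 1621 several and 5533 none. Symbols were updated through RefSeq GRCm38.p6 (21698 matched), and 1 probe set per gene was kept, by highest mean. The values were compared as spaceflight minus ground control by limma's lmFit and eBayes (version 3.58.1, under R 4.3.3; two-sided, no replicate block), adjusted by Benjamini-Hochberg over 19938 genes at 0.05. Errors after ± are standard errors unless marked SD. Precision is limited by the number of arrays.

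The members and the lists were chosen with earlier results of these data known. Values are given for the 4 members of smallest p in each complex and among the assembly factors, for the catalytic and electron-carrying members, for 4 isoform pairs of complex IV, for members whose probe sets disagreed in sign, and for the 3 of smallest p in each other list. Ndufs6, Ndufs7, Ndufs8, Ndufv2, Ndufa1, Ndufa4, Ndufa4l2, Uqcrc1, Uqcrc2, Atp5c1, Atp5g1, Atp5g3, Atp5l and Cox7a2l were named after their values were seen. So were Lpl, Dio2 and Nubpl of the other lists. The procedure was tested on simulated data. The alternatives tried were other centring and normalization, a filter on dim probe sets, averaged probe sets, array weights, control probe sets kept, a replicate block and each array left out. Spaceflight arrays 1 and 3 were also left out together. Leaving them out after cyclic loess, and fitting all kept probe sets, were chosen after seeing the data.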

Additional observations from a re-analysis of the deposited data

Results flagged for a closer look

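Among 112 groups of 4 mice tested for a value far from the other 3, 7 had one, where chance gives about 1 in 20. In spaceflight mouse 1 the far value was the lowest of its group for Cox7a2 (7.96), Atp5md (10.0), Ndufs1 (8.95), Ndufs7 (8.12) and Ndufv2 (9.12). In spaceflight mouse 4 it was the highest for Cox6a1 (9.43) and Ndufaf5 (5.40). No ground-control mouse had such a value among the genes tested.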

How the results depend on the processing

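No member passed an adjusted p under 0.05 in any of the 19 alternatives, and of 49 named members 33 kept their sign in all of them. With 75th percentile centring, which moved the median of all genes to 0.12, the median difference was 0.0093 in complex IV and 0.038 in complex V, and the differences of these genes turned positive (Vdac1 is a carrier gene outside the 90): Sdha 0.0876, Ndufaf5 0.00088, Ndufv1 0.0906, Ndufs1 0.0467, Atp5a1 0.121, Cox4i1 0.0721, Cox6a1 0.0344, Atp5g2 0.134, Atp5g1 0.0423, Atp5g3 0.129 and Vdac1 0.0652. Repeated quantile normalization gave 0.00032 for complex V, and Sdha 0.0712, Ndufv1 0.0760, Ndufs1 0.0197, Atp5a1 0.0335, Cox4i1 0.0434, Cox6a1 0.0193, Atp5g2 0.112, Atp5g1 0.0436, Atp5g3 0.108 and Vdac1 0.0376. Cyclic loess gave 0.00046 for complex V, and Sdha 0.0436, Ndufv1 0.0758, Ndufs1 0.0257, Atp5a1 0.0517, Cox4i1 0.0490, Cox6a1 0.0211, Atp5g2 0.108, Atp5g1 0.0354, Atp5g3 0.0976 and Vdac1 0.0467. Array weights gave Ndufv1 0.0077, Atp5a1 0.00097, Atp5g2 0.0278 and Atp5g3 0.022, and averaged probe sets gave Atp5g2 0.0085. Without spaceflight 1 and 3 the median of complex II was -0.066, with Sdhb 0.0016, Sdha 0.0352, Ndufv1 0.0807, Ndufs1 0.0273, Cox4i1 0.0320, Cox4i2 -0.0409, Cox6a1 0.158, Atp5g2 0.129, Ndufa4l2 -0.0185, Atp5g3 0.208 and Vdac1 0.0885. Adding cyclic loess to that gave Sdha 0.0438, Ndufv1 0.0759, Ndufs1 0.0256, Atp5a1 0.0138, Cox4i1 0.0312, Cox4i2 -0.0182, Cox6a1 0.152, Atp5g2 0.130, Atp5g3 0.211 and Vdac1 0.0855. The causes were not tested. Leaving out single mice gave -0.0392 to 0.0154 for Atp5a1, -0.0568 to 0.0504 for Atp5g2, -0.131 to 0.0633 for Atp5g3, -0.165 to 0.0383 for Cox4i1, -0.0265 to 0.0965 for Cox4i2, -0.0187 to 0.248 for Cox6b2, -0.220 to 0.368 for Ndufa1, -0.137 to 0.0133 for Ndufs1, -0.123 to 0.0370 for Ndufv1, -0.0998 to 0.0543 for Sdha and -0.0602 to 0.164 for Uqcrfs1. Mice with the same number did not deviate together (correlations 0.24, -0.30, -0.10 and 0.07), and with the replicate block the median difference stayed -0.17 with 0 members and 20 genes called, against 16 without the block. Genes called over all genes ran from 5 with control probe sets kept to 20 with the block. With 4 arrays per group, small differences of single genes were not detectable. The comparison of isoform proteins was not run.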
